A study of Homo sapiens with 14 samples.

Results

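Lysosomes are the acidic compartments in which cells break down proteins, sugars, lipids and whole organelles. Described here are 35 human genes for their soluble hydrolases, membrane proteins, proton pump and main transcription factor. They were chosen by name with earlier results of these data known. Their shares are therefore set beside those of all genes as descriptions, and the list was given no test. On the arrays, each gene was read from its brightest probe set, by mean over the 14 arrays, among those assigned to no other gene. All 35 genes were measured, of 18129 genes in all, and all 35 were bright enough to be among the 10877 genes tested. They are 7 membrane proteins, 8 cathepsins and other proteases, 7 glycosidases and 3 sulfatases. The rest are 6 lipid enzymes and lipid carriers, with GRN (progranulin) counted among them, 3 subunits of the proton pump and the transcription factor TFEB.

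Expression arrays were read for PANC-1, an established line from a human pancreatic carcinoma. The groups were TGFb1 at 5 ng/ml with acriflavine at 2.5 µM (3 arrays), TGFb1 with sodium valproate at 2 mM (3 arrays), TGFb1 alone at 5 ng/ml (4 arrays) and untreated control (4 arrays). All cells, controls included, had been grown in 10% serum and kept for 24 h in 1% serum before 48 h of treatment, and 200 ng of RNA was labelled. TGFb1 is a cytokine that drives epithelial cells towards a mesenchymal state, acriflavine is a mixture of acridine dyes, and valproate inhibits histone deacetylases. All groups come from 1 cell line, and cells given acriflavine alone or valproate alone were not analysed here.

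Most soluble lysosomal enzymes are made in the endoplasmic reticulum, tagged with mannose 6-phosphate in the Golgi and sorted to the lysosome by receptors, and they work at the low pH that the vacuolar proton pump (V-ATPase) maintains. Many of these genes carry E-box-like sites to which TFEB binds. In carcinoma cells some cathepsins are also secreted and act on the extracellular matrix.

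Values are log2 intensities, and differences are between group means of these log2 values, with the standard error (SE) of a limma fit over all 14 arrays. Rises and falls are those with an adjusted p under 0.05 over the 10877 genes. Levels of different genes were not set against each other, since each rests on another probe set. The number of arrays limits the precision. RNA came from whole cultures, so less RNA per cell and fewer cells expressing a gene cannot be told apart.

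The array medians over all probe sets lay between 7.16 and 7.21. TGFb1 replicate 4, TGFb1 replicate 2 and control replicate 4 stood apart from their groups, with standard deviations (SD) of their deviations from the group means of 0.375, 0.256 and 0.250, against 0.0665 to 0.160 for the other 11 arrays. All 8 markers of ductal carcinoma cells lay in the tested range, with means from 8.01 for CDH1 to 13.7 for KRT18. The keratin genes KRT8, KRT18 and KRT19 were at 13.5, 13.7 and 12.5, and KRT7 at 9.35. Of 10 macrophage and leukocyte markers, whose own cells are rich in lysosomes, 3 lay in the tested range. These were TYROBP at 7.85, CD74 at 7.83 and LAPTM5 at 6.95. The other 7 lay below it, from MRC1 at 3.79 to CSF1R at 6.76, with PTPRC, CD14 and CD163 at 3.81, 4.78 and 4.10. LAPTM5, itself a lysosomal membrane protein of blood cells, rose with TGFb1 against control (0.87) and fell with acriflavine against TGFb1 (-1.05). CD74, the invariant chain of MHC class II, fell with TGFb1 against control (-0.47) and rose with acriflavine and with valproate against TGFb1 (0.47 and 0.91). TYROBP did not pass in any of the 6 comparisons. The summed log2 level of those 10 markers was 55.5 to 56.4 in acriflavine arrays, 57.2 to 58.0 in valproate arrays, 55.5 to 57.8 in TGFb1 arrays and 55.6 to 56.6 in control arrays, and its part in the results was not tested.

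**Figure D1:**
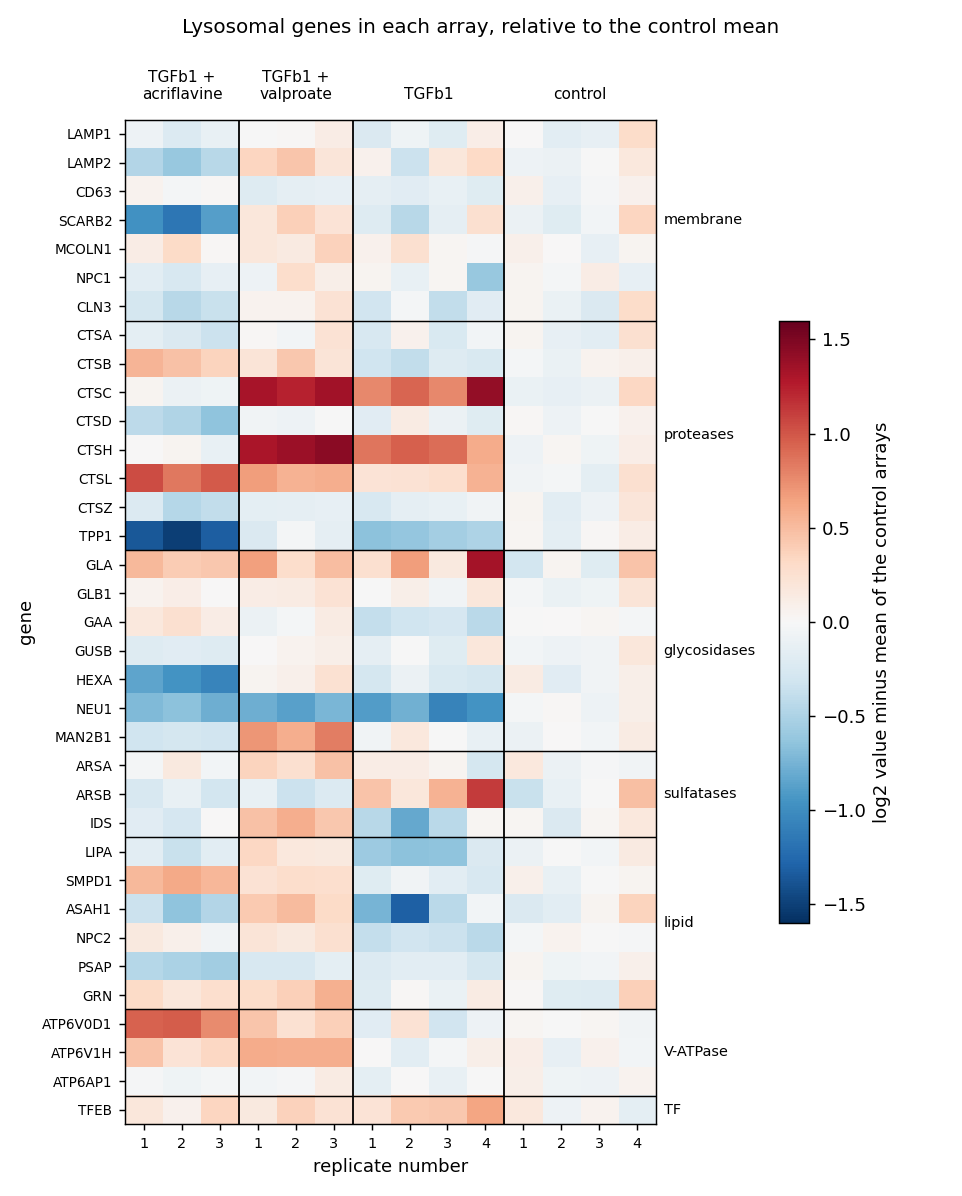
Each row is a lysosomal gene and each column an array, numbered by replicate within its group; colour gives the log2 value minus the mean of the 4 control arrays. CTSC and CTSH stand out as high in the valproate and TGFb1 columns, NEU1 as low in every treated column, and TPP1 and SCARB2 as low in the 3 acriflavine columns.

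The sequence CACGTG, the core of the E-box that TFEB and its relatives bind, was searched in RefSeq promoter windows (GRCh38.p14) that reach from 250 bases before to 50 bases after a gene's start. It reads the same on both strands, as does the longer TCACGTGA, which contains it. Windows were matched for 28 of the 35 genes. LAMP2, CTSB, HEXA, ASAH1, PSAP, ARSA and ATP6V1H are the others. CACGTG lay in the windows of 10 of the 28 genes (35.7%), against 8.77% of 27305 genes with a window and 7.26% of all 35116 windows. TCACGTGA lay in 6 of 28 (21.4%), against 1.18% of genes and 0.98% of windows. The 10 genes were LAMP1, CD63, MCOLN1, CLN3, CTSA, CTSD, GAA, NEU1, ARSB and ATP6V0D1, and the longer motif was in LAMP1, MCOLN1, CLN3, CTSA, GAA and ATP6V0D1. A match describes the sequence and does not show binding.

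Stretches of 7 of these promoters are shown because genes with the same motif behaved differently on the arrays. ATP6V0D1 and GAA rose with acriflavine, CTSD fell with it, NEU1 fell with TGFb1, ARSB fell with both drugs, and LAMP1 and MCOLN1 did not pass in any of the 6 comparisons. They lie at chr16:67481181-67481246 on the minus strand (ATP6V0D1), chr17:80101475-80101580 on the plus strand (GAA), chr11:1763939-1764004 on the minus strand (CTSD), chr6:31862912-31862977 on the minus strand (NEU1), chr5:78986083-78986148 on the minus strand (ARSB), chr19:7522553-7522623 on the plus strand (MCOLN1) and chr13:113297017-113297238 on the plus strand (LAMP1), all upstream of the gene's start. Each is printed 5′ to 3′ along the gene, and capitals mark TCACGTGA, or CACGTG where the longer motif is not complete within the stretch. LAMP1 has 5 matches in its stretch, GAA and MCOLN1 have 2 each and the others 1.
ATP6V0D1: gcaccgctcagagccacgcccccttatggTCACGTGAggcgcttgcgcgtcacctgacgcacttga
GAA: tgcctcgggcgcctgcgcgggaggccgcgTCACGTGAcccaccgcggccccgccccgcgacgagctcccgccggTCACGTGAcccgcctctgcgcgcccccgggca
CTSD: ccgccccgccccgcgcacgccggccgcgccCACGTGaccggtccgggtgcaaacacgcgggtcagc
NEU1: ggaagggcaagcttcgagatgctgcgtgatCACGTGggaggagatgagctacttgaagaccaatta
ARSB: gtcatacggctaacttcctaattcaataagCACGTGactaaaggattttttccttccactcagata
MCOLN1: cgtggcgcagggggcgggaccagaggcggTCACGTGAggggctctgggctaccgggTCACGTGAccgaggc
LAMP1: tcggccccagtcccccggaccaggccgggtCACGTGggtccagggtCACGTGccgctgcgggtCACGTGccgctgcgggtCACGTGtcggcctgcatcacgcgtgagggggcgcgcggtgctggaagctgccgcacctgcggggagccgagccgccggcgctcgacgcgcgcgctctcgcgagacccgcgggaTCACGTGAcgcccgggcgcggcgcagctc

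TGFb1 alone was compared with control to ask what the cytokine changed without either drug. Of the 35 lysosomal genes, 5 rose (14.3%), 7 fell (20%) and 23 did not pass, against 8.39% of all genes higher and 9.97% lower. The median difference was -0.09, between -0.92 and 0.97, and over all genes tested it was 0.00. It was -0.15 without control replicate 2, -0.14 without TGFb1 replicate 2, -0.0522 without TGFb1 replicate 1 and -0.0496 without control replicate 4. The TGFb1 arrays of 3 genes lay wholly above the control arrays and those of 7 wholly below, against 8.44% and 9.55% of all genes. The clearest rises were those of CTSC and CTSH and the clearest falls those of NEU1, TPP1 and LIPA.

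CTSC, a dipeptidyl peptidase that activates granule serine proteases, read 11.32, 11.49, 11.33 and 11.96 in TGFb1 arrays, against 10.45, 10.43, 10.46 and 10.89 in control arrays. The groups did not overlap, and replicate 4 was the highest array in both. The difference was 0.97 ± 0.137 (SE, adjusted p = 0.000214). CTSH, a lysosomal aminopeptidase of the papain family, read 10.76, 10.85, 10.80 and 10.49 in TGFb1 arrays, against 9.83, 9.94, 9.84 and 10.01 in control arrays. All TGFb1 arrays lay above all control arrays, by 0.82 ± 0.0860 on average (adjusted p = 1.51e-05). CTSL, an endopeptidase with broad activity, rose by 0.32, with overlapping arrays.

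Among the proteases that fell, TPP1, which takes tripeptides off the ends of proteins and is deficient in a childhood form of Batten disease, read 11.10, 11.13, 11.21 and 11.26 in TGFb1 arrays, against 11.78, 11.59, 11.77 and 11.87 in control arrays. The groups were well apart, with a difference of -0.58 ± 0.0793 (adjusted p = 0.000171). CTSB, the most studied cathepsin of tumour invasion, fell by 0.29 (adjusted p = 0.0209). CTSA, CTSD and CTSZ lay between -0.14 and -0.08 and did not pass.

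NEU1, the sialidase that takes terminal sialic acids off glycoproteins, had the lowest difference of the 35 genes. It read 9.92, 10.04, 9.74 and 9.84 in TGFb1 arrays, against 10.77, 10.82, 10.73 and 10.90 in control arrays. The groups were separated by more than the range of either, with a difference of -0.92 ± 0.0765 (adjusted p = 2.02e-06). CTSA, the protective protein that holds NEU1 and the beta-galactosidase GLB1 in a complex, was at -0.12, and GLB1 at 0.05. GAA, the acid glucosidase that degrades glycogen, fell by 0.35 and was below control in every array.

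Lipid enzymes and carriers, with GRN counted among them, were the role with most falls, 3 of 6. LIPA, the acid lipase that frees cholesterol from its esters, read 11.88, 11.81, 11.81 and 12.23 in TGFb1 arrays, against 12.37, 12.45, 12.41 and 12.60 in control arrays. No TGFb1 array reached the lowest control array, and the difference was -0.53 ± 0.10 (adjusted p = 0.00233). NPC2, which binds the freed cholesterol in the lumen, fell by 0.37 (adjusted p = 0.00153). PSAP, the precursor of the saposins that help sphingolipid hydrolases, fell by 0.21.

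For TFEB itself the TGFb1 arrays read 8.47, 8.68, 8.68 and 8.88, against 8.42, 8.17, 8.31 and 8.10 in control arrays. They did not overlap, and the difference was 0.42 ± 0.103 (adjusted p = 0.0110). The sulfatase ARSB, which acts on dermatan and chondroitin sulfate, rose by 0.58 ± 0.187 (adjusted p = 0.0452). Its replicate 4 was the highest array of both groups, 9.41 with TGFb1 and 8.78 in control. Of the 7 membrane proteins, 0 passed in the limma fit on the probe set kept, and 1 had an unadjusted p under 0.05, with differences between -0.23 and 0.09. The 8 bright probe sets of CLN3 ran from -0.27 to -0.01, and 2 of them passed. The 3 pump subunits lay between -0.08 and -0.02. ATP6AP1 had 2 bright probe sets, at -0.21 and -0.07, of which 1 passed.

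By the criterion used, equal replicate numbers made pairs of TGFb1 and control arrays. A shift shared by the replicates 4 can also meet this criterion for the other numbers. A single term for the replicates 4 gave 15 genes, 6 higher and 9 lower. Shares of all genes were not counted for this term or for the replicate block. With the replicate block, 15 genes also passed, 6 higher and 9 lower. The 3 gained were GLA, an alpha-galactosidase, at 0.61 (adjusted p = 0.00379 with the replicate block, 0.0750 without it), IDS, a sulfatase of heparan and dermatan sulfate, at -0.41 (0.00899 against 0.0639) and ASAH1, acid ceramidase, at -0.63 (0.00517 against 0.0535). Without TGFb1 replicate 4, IDS (-0.56) and ASAH1 (-0.83) also passed (adjusted p = 0.00266 and 0.00379). GLA passed without TGFb1 replicate 3 (0.75, adjusted p = 0.0344) or control replicate 4 (0.76, adjusted p = 0.0332), and HEXA without control replicate 2 (-0.29, adjusted p = 0.0488).

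The weaker calls depended on single arrays. CTSL (0.24 to 0.35) and ARSB (0.40 to 0.62) did not pass without control replicate 1, 2 or 3 or without TGFb1 replicate 1, 3 or 4 (adjusted p = 0.0511 to 0.133 and 0.0620 to 0.124). PSAP did not pass without control replicate 1, 3 or 4 or TGFb1 replicate 1 (-0.23 to -0.18, adjusted p = 0.0617 to 0.0876), nor CTSB without control replicate 3 or TGFb1 replicate 1 or 2 (-0.28 to -0.26, adjusted p = 0.0502 to 0.0652). The median of the 35 genes was -0.07 within replicates 1 to 3 and -0.25 within replicates 4. CTSH, TPP1, NEU1 and LIPA passed under every alternative tried at that threshold.

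**Figure D2:**
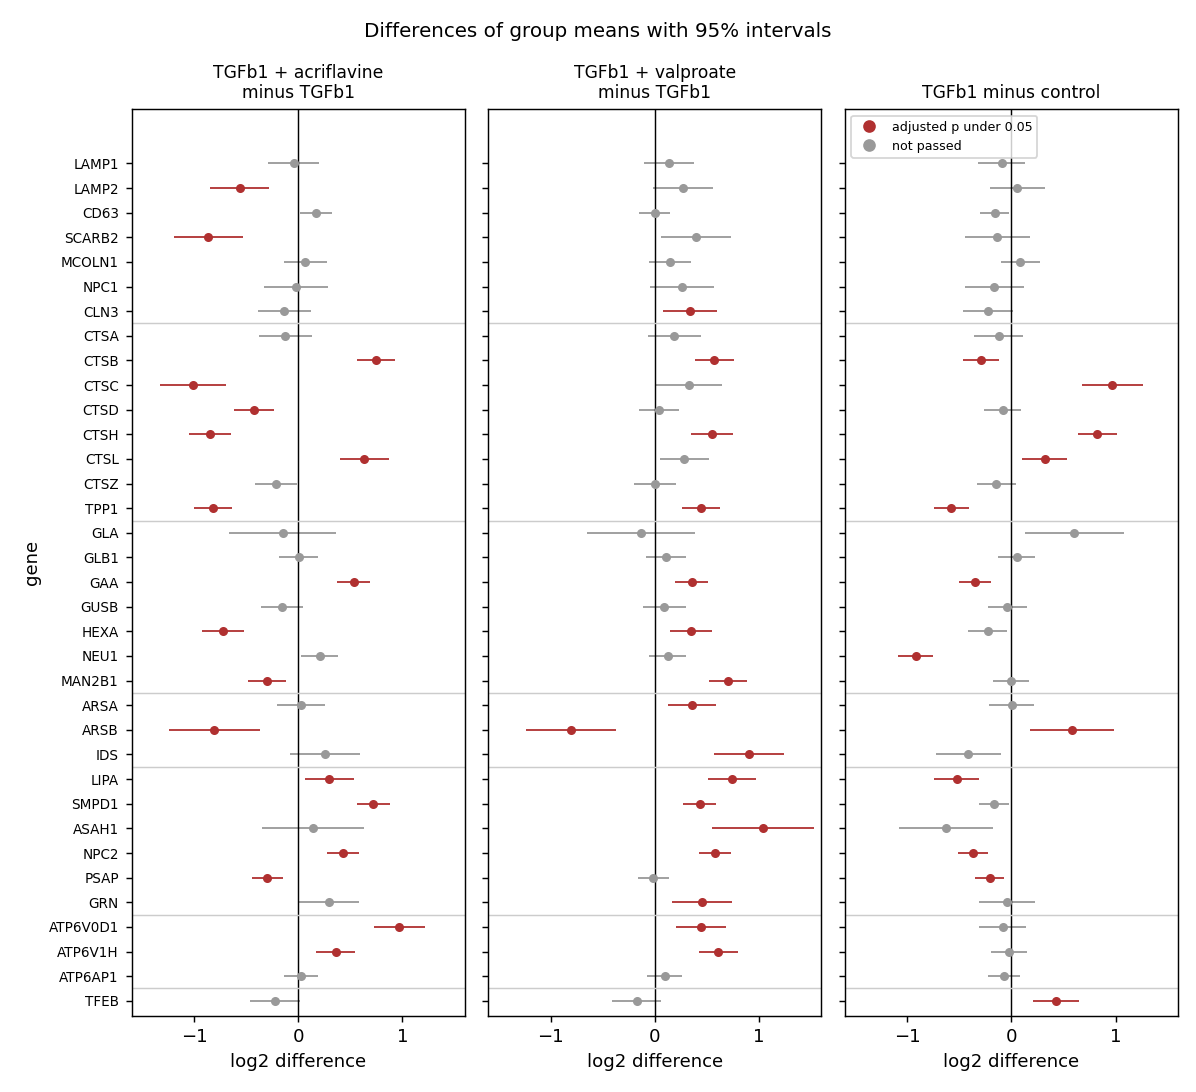
Points are log2 differences between group means for each of the 35 genes and bars their 95% intervals, in red where the adjusted p was under 0.05. Acriflavine points lie on both sides of 0, from CTSC at -1.01 to ATP6V0D1 at 0.97, whereas the valproate panel has 16 red points to the right and ARSB alone to the left.

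The effect of the dye on cells under TGFb1 was read by setting acriflavine with TGFb1 against TGFb1 alone. It split the lysosomal genes: 8 rose (22.9%), 10 fell (28.6%) and 17 did not pass, against 24.5% of all genes higher and 19.1% lower, so that neither share was far from that of all genes. The median difference was -0.02, between -1.01 and 0.97, against 0.03 over all genes. It ran from -0.0488 to 0.0228 with 1 array left out, and was above 0 without TGFb1 replicate 4. The acriflavine arrays of 9 genes lay wholly above the TGFb1 arrays and those of 10 wholly below, against 24.8% and 19.3% of all genes. The pump subunit ATP6V0D1 and the enzymes CTSB, SMPD1 and CTSL rose most, and CTSC, SCARB2, CTSH, TPP1 and ARSB fell most.

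ATP6V0D1, a subunit of the membrane sector of the proton pump, read 11.40, 11.42 and 11.21 in acriflavine arrays, against 10.27, 10.69, 10.14 and 10.38 in TGFb1 arrays. Every acriflavine array lay above the others, by 0.97 ± 0.112 on average (adjusted p = 1.32e-05). ATP6V1H, a regulatory subunit of the cytosolic sector, rose by 0.36 (adjusted p = 0.00407). ATP6AP1, an accessory subunit, was at 0.03 with a 95% interval of -0.14 to 0.19.

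The proteases moved in opposite directions, with 2 higher and 4 lower of 8. CTSC read 10.59, 10.46 and 10.49 in acriflavine arrays, all below the TGFb1 arrays given above, and fell by 1.01 ± 0.148 (adjusted p = 0.000104), the only 1 of the 35 genes to pass with a change of at least 2-fold in this comparison; over all genes 3.17% were lower and 3.75% higher by as much. CTSH read 9.91, 9.95 and 9.78 and fell by 0.85 ± 0.0928 (adjusted p = 8.72e-06). TPP1 read 10.39, 10.25 and 10.43, against 11.10 to 11.26 in TGFb1 arrays, and fell by 0.82 (adjusted p = 5.95e-06). CTSD, the main aspartic protease of lysosomes, fell by 0.43.

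CTSB went the other way. It read 12.98, 12.90 and 12.79 in acriflavine arrays, against 12.12, 12.04, 12.23 and 12.19 in TGFb1 arrays, with no overlap and a difference of 0.75 ± 0.0857 (adjusted p = 1.25e-05). CTSL read 10.68, 10.49 and 10.63, against 9.87, 9.87, 9.91 and 10.21 in TGFb1 arrays, and rose by 0.64 ± 0.109 (adjusted p = 0.000361). Both lay above every TGFb1 array.

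Among membrane proteins, SCARB2, the receptor that carries beta-glucocerebrosidase to the lysosome, read 10.36, 10.17 and 10.44 in acriflavine arrays, against 11.12, 10.88, 11.17 and 11.58 in TGFb1 arrays. The highest acriflavine array stayed below the lowest TGFb1 array, with a difference of -0.86 ± 0.155 (adjusted p = 0.000515). LAMP2, a major glycoprotein of the membrane that is needed for autophagosome fusion, read 11.66, 11.52 and 11.68, against 12.20, 11.78, 12.31 and 12.45 in TGFb1 arrays, and fell by 0.56 (adjusted p = 0.00371). Its relative LAMP1 was at -0.05, the calcium channel MCOLN1 at 0.07, the cholesterol exporter NPC1 at -0.02, the tetraspanin CD63 at 0.17 and CLN3 at -0.13, and these 5 did not pass on the probe set kept. CD63 had 2 bright probe sets, at 0.17 and 0.31, of which 1 passed.

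HEXA, the alpha subunit of beta-hexosaminidase, read 10.28, 10.15 and 10.06 in acriflavine arrays, against 10.83, 11.02, 10.87 and 10.83 in TGFb1 arrays. The separation was larger than the range of either group, and HEXA fell by 0.72 ± 0.0944 (adjusted p = 3.77e-05). MAN2B1, the lysosomal alpha-mannosidase, fell by 0.30 and GAA rose by 0.53. ARSB read 8.04, 8.18 and 8.0, against 8.76, 8.48, 8.86 and 9.41 in TGFb1 arrays, and fell by 0.80 ± 0.202 (adjusted p = 0.00528). The other glycosidases, GLA, GLB1, GUSB and NEU1, lay between -0.16 and 0.21 and did not pass. NEU1 passed without TGFb1 replicate 2 (0.26, adjusted p = 0.0157).

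SMPD1, acid sphingomyelinase, which makes ceramide from sphingomyelin, read 8.52, 8.61 and 8.53 in acriflavine arrays, against 7.80, 7.95, 7.83 and 7.74 in TGFb1 arrays. All 3 lay above, and SMPD1 rose by 0.72 ± 0.0738 (adjusted p = 5.10e-06). NPC2 rose by 0.43 and LIPA by 0.30, while PSAP fell by 0.30. LIPA did not pass without acriflavine replicate 1 or 3 or TGFb1 replicate 1, 2 or 3 (0.26 to 0.28, adjusted p = 0.0811 to 0.130). GRN, progranulin, was at 0.29 and IDS at 0.26, and both passed without TGFb1 replicate 4 (0.35, adjusted p = 0.0425, and 0.41, adjusted p = 0.0122). The 5 bright probe sets of IDS ran from -0.24 to 0.53, and 2 of them passed as higher. TFEB was at -0.23 (adjusted p = 0.117).

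The same question for the deacetylase inhibitor was read from valproate with TGFb1 against TGFb1 alone. Of the 35 genes 16 rose (45.7%), 1 fell (2.86%) and 18 did not pass, against 15.1% of all genes higher and 16.2% lower. The median difference was 0.32, between -0.81 and 1.04, against -0.01 over all genes. The rises took in 5 of 6 lipid enzymes and carriers, with GRN counted among them, and 2 of 3 sulfatases. They also took in 2 of 3 pump subunits, 3 of 8 proteases, 3 of 7 glycosidases and 1 of 7 membrane proteins. The arrays of 16 genes lay wholly above the TGFb1 arrays and those of ARSB wholly below, against 16.7% of all genes above and 17.9% below.

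ASAH1, acid ceramidase, which splits ceramide into sphingosine and a fatty acid, had the largest difference. It read 9.91, 9.99 and 9.80 in valproate arrays, against 8.75, 8.19, 9.05 and 9.45 in TGFb1 arrays. The TGFb1 arrays were widely spread, yet all lay below, and the difference was 1.04 ± 0.228 (adjusted p = 0.00325), the only one of the 35 to pass with at least 2-fold here, against 2.46% of all genes higher and 1.63% lower by as much. LIPA read 12.79, 12.62 and 12.61, above all TGFb1 arrays, and rose by 0.74 ± 0.108 (adjusted p = 0.000166). NPC2 rose by 0.57, GRN by 0.46 and SMPD1 by 0.43, and PSAP was at -0.01 with a 95% interval of -0.16 to 0.14.

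IDS read 11.08, 11.21 and 11.05 in valproate arrays, against 10.18, 9.81, 10.19 and 10.65 in TGFb1 arrays. No TGFb1 array reached the valproate range, and IDS rose by 0.90 ± 0.157 (adjusted p = 0.000619). ARSA, the sulfatase of sulfatides, rose by 0.36. ARSB was the exception: it read 8.18, 7.95 and 8.08, against 8.48 to 9.41 in TGFb1 arrays, and fell by 0.81 ± 0.202 (adjusted p = 0.00737).

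MAN2B1 read 8.21, 8.09 and 8.32 in valproate arrays, against 7.46, 7.68, 7.5 and 7.39 in TGFb1 arrays. The groups were far apart for their spread, and MAN2B1 rose by 0.70 ± 0.0867 (adjusted p = 4.16e-05). GAA and HEXA each rose by 0.35. NEU1 was at 0.12 with a 95% interval of -0.05 to 0.30, and GLA, GLB1 and GUSB lay between -0.13 and 0.11.

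Among proteases CTSB rose by 0.57 (adjusted p = 0.000202), CTSH by 0.55 and TPP1 by 0.44. The 9 bright probe sets of TPP1 ran from 0.03 to 0.48, and 3 of them passed. CTSH read 11.21, 11.27 and 11.35, against 10.49 to 10.85 in TGFb1 arrays, so its valproate arrays were the highest of the series. CTSC was at 0.32 and CTSL at 0.28, and both passed without TGFb1 replicate 4 (0.47, adjusted p = 0.00448, and 0.37, adjusted p = 0.00864). CTSA, CTSD and CTSZ lay between 0.00 and 0.19 and did not pass.

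Both pump subunits that had risen with acriflavine rose here too, ATP6V1H by 0.61 and ATP6V0D1 by 0.44; the 2 comparisons share the TGFb1 arrays. ATP6V1H read 10.31, 10.30 and 10.31 in valproate arrays, against 9.56 to 9.82 in TGFb1 arrays. CLN3, a membrane protein of late endosomes and lysosomes, rose by 0.34, and SCARB2 at 0.39 did not pass (adjusted p = 0.0699). SCARB2 and LAMP2 passed without TGFb1 replicate 4 (0.52, adjusted p = 0.00603, and 0.36, adjusted p = 0.0349). TFEB, with a difference of -0.18, did not pass either (adjusted p = 0.263).

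Several of the smaller rises with valproate depended on single arrays. CLN3 did not pass without any 1 of the valproate replicates or without TGFb1 replicate 1 or 3 (0.28 to 0.37, adjusted p = 0.0768 to 0.168). GRN did not pass without valproate replicate 3 or TGFb1 replicate 1 (0.38 to 0.40, adjusted p = 0.0543 to 0.0911), ARSA without valproate replicate 1 or 3 (0.30 to 0.36, adjusted p = 0.0603 to 0.0982) and HEXA without valproate replicate 3 (0.29, adjusted p = 0.0668). Some rises also depended on the probe sets read. Without those ending in _x_at HEXA was at 0.19 (adjusted p = 0.396), and 2 of its 7 bright probe sets passed. With the mean of all probe sets of a gene, dim ones included, GAA was at 0.14, CTSH at 0.26 and ARSA at 0.24. None of these passed (adjusted p = 0.298, 0.0676 and 0.185). With the probe set of largest variance ARSA was at 0.15 and GRN at 0.41 (adjusted p = 0.573 and 0.0637).

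**Figure D3:**
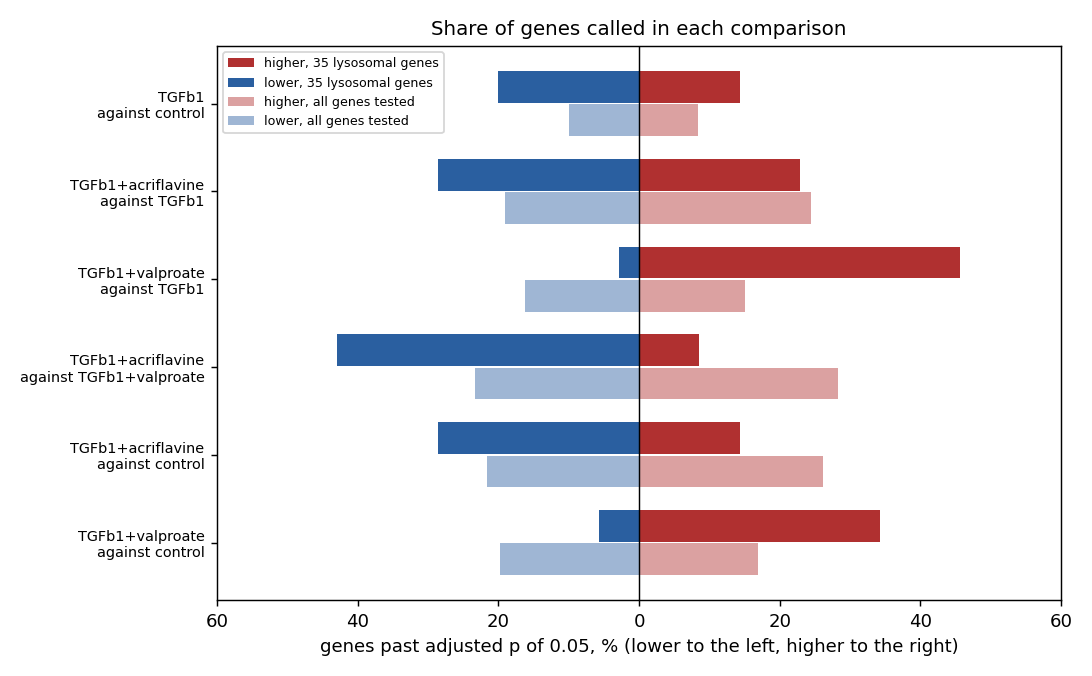
Bars give the share of genes past an adjusted p of 0.05, lower to the left and higher to the right, for the 35 lysosomal genes (dark) and all 10877 genes tested (pale). With valproate against TGFb1, 45.7% of the lysosomal genes and 15.1% of all genes were higher; with acriflavine against TGFb1 the shares were 22.9% and 24.5%.

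The 2 drugs were then set against each other, both in the presence of TGFb1. Relative to valproate, 3 lysosomal genes were higher with acriflavine (8.57%), 15 were lower (42.9%) and 17 did not pass, against 28.3% of all genes higher and 23.3% lower. The median difference was -0.25, between -1.40 and 0.53, against 0.04 over all genes. The acriflavine arrays of 22 genes lay wholly below the valproate arrays and those of 4 wholly above, against 33% of all genes below and 39.3% above. Of the 35 genes, 6 passed and were lower by at least 2-fold, against 5.96% of all genes.

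These 6 were the proteases CTSH (-1.40 ± 0.0993, adjusted p = 1.22e-07), CTSC (-1.34 ± 0.158, adjusted p = 1.08e-05) and TPP1 (-1.26 ± 0.0916, adjusted p = 1.46e-07), the receptor SCARB2 (-1.26 ± 0.166, adjusted p = 2.76e-05) and the glycosidases HEXA (-1.07 ± 0.101, adjusted p = 1.36e-06) and MAN2B1 (-1.0 ± 0.0927, adjusted p = 1.17e-06). TPP1 read 10.39, 10.25 and 10.43 with acriflavine, against 11.53, 11.73 and 11.61 with valproate. SCARB2 read 10.36, 10.17 and 10.44, against 11.50, 11.71 and 11.53 with valproate. For each of the 6 the gap between the groups was wider than either group.

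ASAH1 was lower with acriflavine by 0.90 on average, at 9.15, 8.84 and 9.01, against 9.91, 9.99 and 9.80 with valproate. LAMP2 was at -0.83, IDS at -0.64, CTSD and CLN3 each at -0.47 and LIPA at -0.44, and all of these passed. PSAP was at -0.28. The 3 genes that were higher with acriflavine were ATP6V0D1 (0.53, adjusted p = 0.00217), CTSL (0.35) and SMPD1 (0.29).

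Other genes did not pass between the drugs on the probe set kept, and the intervals bound the difference for that probe set only. Their widths rest on the spread in all 4 groups. The SD of ARSB was 0.0946 with acriflavine and 0.115 with valproate, against 0.391 with TGFb1 and 0.350 in control. ARSB was at 0.00 with a 95% interval of -0.46 to 0.47, NEU1 at 0.08 (-0.11 to 0.27), CTSB at 0.18 (-0.02 to 0.37) and NPC2 at -0.15 (-0.31 to 0.02). Of the 4 bright probe sets of ARSB, which ran from 0.00 to 0.83, 2 passed as higher with acriflavine. Of the 3 of NPC2, from -0.29 to 0.12, 1 passed as lower. GAA, at 0.18, passed without valproate replicate 3 (0.24, adjusted p = 0.0331). CTSL did not pass without acriflavine replicate 1 or 3 or valproate replicate 2 or 3 (0.31 to 0.34, adjusted p = 0.0577 to 0.0809). ARSA, at -0.33, did not pass without replicate 1 or 3 of either drug (-0.33 to -0.28, adjusted p = 0.0614 to 0.105), nor ATP6V1H, at -0.25, without acriflavine replicate 2 or 3 or any 1 valproate replicate (-0.25 to -0.19, adjusted p = 0.0799 to 0.156).

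**Figure D4:**
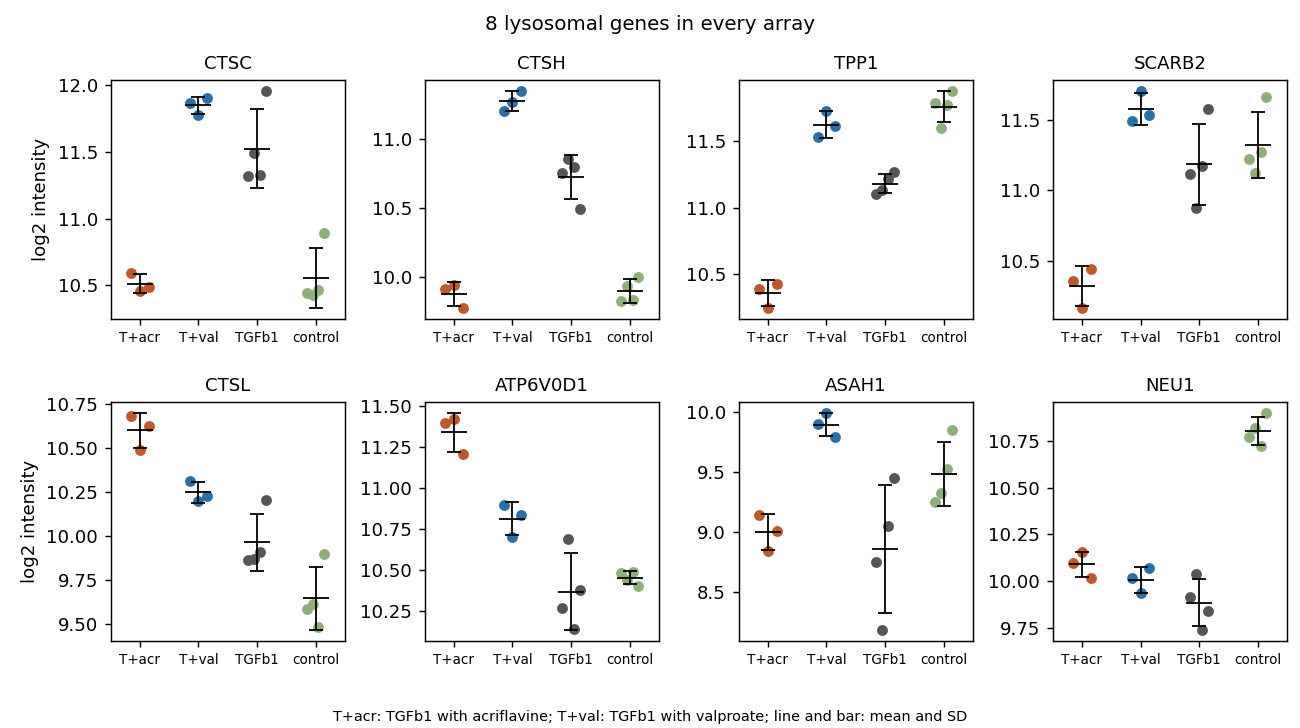
Each point is the log2 intensity of an array, with the group mean and SD as line and bar, for 8 lysosomal genes chosen to show the patterns in the text; each panel has its own axis, which does not start at 0. Acriflavine arrays are lowest for TPP1 and SCARB2 and highest for CTSL and ATP6V0D1, and NEU1 is lower in all 10 treated arrays than in the 4 control arrays.

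Both drug groups were also compared with untreated control, which shows where the genes stood after TGFb1 and drug together. These comparisons share the control arrays with each other and with that of TGFb1 alone. With acriflavine and TGFb1, 5 genes were higher than control and 10 lower, against 26.1% and 21.6% of all genes, with a median of -0.14, which was -0.0434 without control replicate 4 and -0.0915 without acriflavine replicate 2. With valproate and TGFb1, 12 were higher and 2 lower, against 16.9% and 19.8% of all genes, with a median of 0.22. The acriflavine arrays of 6 genes lay wholly above the control arrays and those of 13 wholly below, against 32.1% and 26.9% of all genes. For valproate arrays these were 14 and 2 genes, against 21.8% and 26.6% of all genes.

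CTSC and CTSH, which had risen with TGFb1, stood at -0.04 (95% interval -0.36 to 0.28) and -0.02 (-0.22 to 0.18) with acriflavine relative to control. With valproate they were higher than control by 1.30 ± 0.148 and 1.37 ± 0.0928 (adjusted p = 1.56e-05 and 1.21e-07), the only 2 of the 35 genes at least 2-fold higher, against 3.75% of all genes. TPP1 was lower than control by 1.40 on the log2 scale with acriflavine, at -1.40 ± 0.0857 (adjusted p = 7.76e-08), and at -0.13 (-0.32 to 0.05) with valproate. Its 9 bright probe sets ran from -0.32 to -0.11 with valproate, and 4 of them passed as lower than control. NEU1 read 10.10, 10.15 and 10.02 with acriflavine and 10.02, 9.93 and 10.07 with valproate, against 10.73 to 10.90 in control, and was lower in both, at -0.71 (adjusted p = 1.44e-05) and -0.80 (adjusted p = 6.13e-06).

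CTSL was higher than control in both drug groups, by 0.95 with acriflavine and 0.60 with valproate. So were ATP6V0D1 (0.89 and 0.36), SMPD1 (0.55 and 0.26), CTSB (0.46 and 0.28) and ATP6V1H (0.34 and 0.58). PSAP was lower in both, at -0.51 and -0.22. With acriflavine SCARB2 (-1.0), HEXA (-0.95), CTSD (-0.51), LAMP2 (-0.51), CLN3 (-0.36), CTSZ (-0.35) and MAN2B1 (-0.30) were also lower than control. With valproate MAN2B1 (0.70), IDS (0.49), GRN (0.41), ARSA (0.36) and NPC2 (0.21) were also higher.

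Against control, CLN3 with acriflavine did not pass without acriflavine replicate 2 or 3 or control replicate 4 (-0.36 to -0.26, adjusted p = 0.0574 to 0.0895), and GRN with acriflavine passed without control replicate 4 (0.38, adjusted p = 0.0108). With valproate the count of 14 genes fell to 9 without valproate replicate 1 or 3. Calls lost when 1 of several arrays was left out were those of NPC2 (control 1, 3 or 4, valproate 1 or 3, 0.18 to 0.21), PSAP (control 1, valproate 1 or 2, -0.21), ARSA (valproate 1 or 3, 0.30 to 0.36), IDS (control 2, any valproate array, 0.42 to 0.52), ATP6V0D1 (valproate 1 or 3, 0.32 to 0.35), CTSB (control 2, valproate 2, 0.21 to 0.25) and GRN (control 2 or 3, valproate 2 or 3, 0.34 to 0.43). Calls gained were those of CD63 without control 2 (-0.21), GLB1 without control 4 (0.23) and LAMP2 without control 4 (0.38). Other calls depended on the probe sets read. With the mean of probe sets LAMP2 and CLN3 did not pass with acriflavine (-0.38 and -0.20, adjusted p = 0.110 and 0.0769). Nor did NPC2 and ARSA with valproate (0.10 and 0.34, adjusted p = 0.353 and 0.0549). Without probe sets ending in _x_at IDS with valproate was at 0.18 (adjusted p = 0.492). With the probe set of largest variance, LAMP2 and CTSB with acriflavine and CTSB, ARSA, NPC2 and GRN with valproate did not pass.

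Over all 14 arrays, some genes had the 3 arrays of a drug apart from all 11 others. With acriflavine CTSL, SMPD1 and ATP6V0D1 lay above all others, as did 16.6% of all genes, and LAMP2, SCARB2, CTSD, TPP1, HEXA, MAN2B1 and PSAP lay below all others, as did 12.2% of all genes. With valproate CTSH, MAN2B1, ARSA, IDS, LIPA, NPC2 and ATP6V1H lay above all others, against 8.56% of all genes, and 0 lysosomal genes lay below all others, against 11.1% of all genes. MAN2B1 is in both sets: its valproate arrays were the highest, its acriflavine arrays the lowest.

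Other probe sets of the same gene were read as a check within the arrays. A bright probe set is one outside the dimmest 40% of those assigned to 1 gene. Of the 35 genes, 25 had several bright probe sets and 10 had 1. In most genes that passed, all bright probe sets had the same sign: 9 of 12 with several for acriflavine against TGFb1, 11 of 12 for valproate against TGFb1, 13 of 13 for acriflavine against valproate and 6 of 7 for TGFb1 against control. The exceptions were LAMP2, HEXA and ARSB with acriflavine, and NPC2 with valproate and with TGFb1 alone. Fewer genes had all bright probe sets pass with the same sign. These were 8 of 12 for acriflavine against TGFb1 and 6 of 12 for valproate against TGFb1. For acriflavine against valproate they were 7 of 13, and for TGFb1 against control 2 of 7.

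LAMP2 had 9 bright probe sets, of which 4 fell with acriflavine relative to TGFb1 (-0.72, -0.66, -0.65 and -0.56) and 5 did not pass (-0.13, 0.02, 0.26, 0.35 and 0.42). LAMP2 is known to be spliced into isoforms with different last exons, and which isoform each probe set reads was not analysed here. HEXA had 4 bright probe sets that fell (-0.77 to -0.54) and 3 that did not pass (-0.23 to 0.02), and a dim one that was not tested stood at -0.56. For ARSB 3 fell with acriflavine (-0.80 to -0.24) and 1 stood at 0.21 and did not pass, whereas all 4 fell with valproate (-0.81 to -0.48). NPC2 had 2 bright probe sets at 0.57 and 0.55 with valproate, which passed, and 1 at -0.06, which did not.

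**Figure D5:**
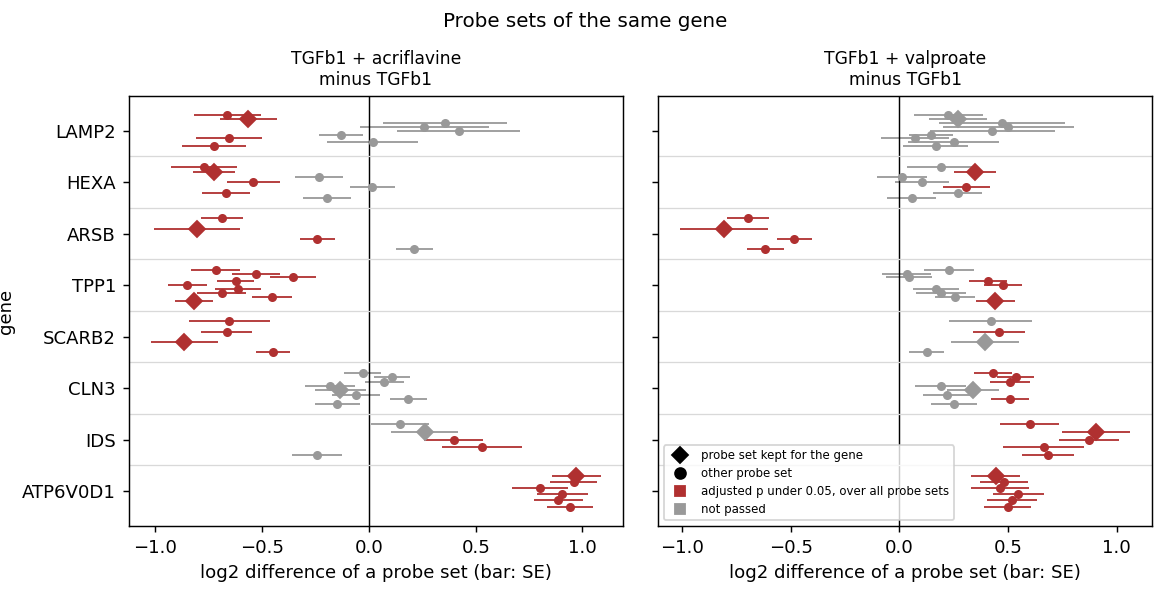
Each symbol is a bright probe set of the named gene, with its log2 difference and SE; diamonds are the probe sets kept for the gene, and red marks an adjusted p under 0.05 over all probe sets tested. The bright probe sets of TPP1, of SCARB2 and of ATP6V0D1 lie on the same side of 0 in each panel (a dim one of ATP6V0D1, not drawn, was at -0.20 with acriflavine), and those of LAMP2 lie on both sides with acriflavine.

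The genes with and without the promoter motif were counted by direction. With valproate relative to TGFb1, 3 of the 10 genes with CACGTG rose and 1 fell, with a median of 0.14, against 8 that rose and 0 that fell of the 18 without it, with a median of 0.36. With acriflavine 2 rose and 2 fell of the 10, against 4 and 5 of the 18. With TGFb1 alone 1 rose and 2 fell of the 10, against 4 and 3 of the 18. No difference between these groups of genes was tested.

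The rest of the lysosomal system was read from lists of other genes. Their counts stand against 24.5% of all genes higher and 19.1% lower with acriflavine relative to TGFb1, 15.1% and 16.2% with valproate relative to TGFb1, 8.39% and 9.97% with TGFb1 alone, and 28.3% and 23.3% with acriflavine relative to valproate. Of 13 other V-ATPase subunits, 8 rose (61.5%) and 1 fell (7.69%) with acriflavine, and 9 rose (69.2%) and 1 fell (7.69%) with valproate. ATP6V1D (1.32) and ATP6V0B (0.96) rose most with acriflavine and ATP6V1B2 fell (-0.38). With valproate ATP6V1A (0.72) and ATP6V0A1 (0.53) rose most and ATP6V0A2 fell (-0.69). The list's median was 0.38 with acriflavine and 0.37 with valproate. With TGFb1 alone 1 rose, ATP6V0B (0.29), and 2 fell, ATP6V1C1 (-0.37) and ATP6V0A1 (-0.31). Between the drugs 5 were higher with acriflavine, most of all ATP6V0A2 (1.35) and ATP6V1D (1.04), and 4 lower, with ATP6V1B2 at -0.75 and ATP6V1A at -0.64.

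Of 24 tested among 32 other hydrolases and activators, 4 rose (16.7%) and 7 fell (29.2%) with acriflavine, 8 rose (33.3%) and 2 fell (8.33%) with valproate and 3 rose (12.5%) and 5 fell (20.8%) with TGFb1 alone. The cysteine protease CTSS rose with acriflavine (1.54) and fell with valproate (-0.74). The nuclease RNASET2 rose with both (0.87 and 1.35), and FUCA1, a fucosidase, rose with valproate (0.94). DNASE2, the acid DNase, and MANBA, a beta-mannosidase, fell with acriflavine (-0.94 and -0.91), and CTSV fell with valproate (-0.54) and rose with TGFb1 (0.68). GGH (0.54) also rose with TGFb1, and CTSO (-0.63) and DPP7 (-0.45) fell. Acriflavine was higher than valproate for 4 of them, with CTSS at 2.29 and CTSV at 0.66, and lower for 10, with MANBA at -1.79 and SCPEP1 at -1.15.

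Of 19 tested among 20 other membrane proteins and transporters, 8 rose with valproate (42.1%) and 11 did not pass, led by LMBRD1, an exporter partner for vitamin B12 (1.13), and the sialic acid transporter SLC17A5 (0.99). With acriflavine 2 rose (10.5%), TPCN1 (0.67) and MFSD8 (0.35), and 3 fell (15.8%), among them CD68 (-0.76) and MFSD1 (-0.66). With TGFb1 alone TPCN2 rose (0.38) and TPCN1 fell (-0.53). Against valproate, acriflavine was higher for 1, MFSD8 (0.41), and lower for 8, with MFSD1 at -1.38 and CD68 at -1.21.

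Of 11 genes of the mannose 6-phosphate pathway and sorting, 3 rose (27.3%) and 2 fell (18.2%) with each drug, shares that with acriflavine were close to those of all genes. IGF2R, the larger mannose 6-phosphate receptor, fell with acriflavine (-0.53) and rose with valproate (0.44), and between the drugs it was at -0.97. The adaptor GGA2 rose with acriflavine (0.40) and fell with valproate (-0.36), with 0.77 between them. AP1B1 rose (0.32) and AP3B1 fell (-0.54) with acriflavine, and GNPTG rose (0.35) and GGA3 fell (-0.42) with valproate. Between the drugs 2 were higher and 4 lower with acriflavine, GGA3 at 0.46 and GNPTAB at -0.60 among them. With TGFb1 alone 0 of 11 passed in the limma fit, and 1 had an unadjusted p under 0.05.

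Of 15 relatives of TFEB and genes of mTORC1 control at the lysosome, MITF fell with TGFb1 (-0.55) and rose with acriflavine (0.61), and RRAGD fell with TGFb1 (-0.41) and rose with acriflavine (0.36) and valproate (0.91). In all 2 rose (13.3%) and 6 fell (40%) with acriflavine, with NPRL3 at -1.24 and RPTOR at -0.56, and 2 rose (13.3%) and 4 fell (26.7%) with valproate, with LAMTOR3 at 0.54, FLCN at -0.49 and FNIP2 at -0.47. With TGFb1 alone MITF and RRAGD were the 2 that passed. Acriflavine was lower than valproate for 5, NPRL3 (-0.80) and LAMTOR3 (-0.70) first.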

How the data were processed

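Values were deposited as log2 intensities; the authors used RMA in the R package affy 1.44.0, per the submitters' processing notes. Which arrays were normalised together is not given in the sources used here. The labels call the replicates biological. Of 49193 probe sets, 44898 named 1 gene, 1825 several and 2470 none here, and 44871 matched a RefSeq table by gene identifier, which changed 0 symbols. A gene kept its brightest probe set by mean over the 14 arrays, which gave 18129 genes. Leaving out the dimmest 40% (7252) left 10877 to test, with a lowest mean of 6.89.

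The fit was made with limma 3.58.1 in R 4.3.3, by lmFit and eBayes on the 4 groups of arrays; 6 comparisons were tested, and p-values were adjusted over all genes by the Benjamini-Hochberg method at 0.05. The fit was tested on simulated data. All 35 genes are accounted for, and those that passed with a log2 difference of at least 0.5 are named; from each other list, up to 2 rises and 2 falls per comparison are named. The 35 genes and the lists were chosen with earlier results of these data known.

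Replicate numbers were taken as pairs where arrays of equal number departed together from their group means, with a correlation across genes over 0.1 for each number. For TGFb1 and control they did (0.387, 0.359, 0.543 and 0.705), and for the other comparisons they did not. Deviations cancel within a group, so a shift shared by the replicates 4 also raises the correlations for the other numbers. These correlations are therefore not separate evidence of pairing. Alternatives were other brightness filters, rules for probe sets, scalings, variance models and thresholds, 2 groups alone, the replicate block, a term for the replicates 4, and arrays left out. Leaving out TGFb1 replicate 2 with the replicates 4 was added after the data were seen. Promoter windows came from RefSeq (GRCh38.p14). Python 3.11.15 and matplotlib 3.10.9 drew the figures.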

Additional observations from a re-analysis of the deposited data

Results flagged for a closer look

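In 3 of 70 values examined, each a gene in a group of 4 arrays, the highest array lay far from the others; chance gives such a gap in about 1 of 20 groups. CTSC read 10.8902 in control replicate 4, against 10.43 to 10.46 in the other control arrays. GUSB read 10.1355 in control replicate 4, against 9.87 to 9.91 in the others. CTSL read 10.2081 in TGFb1 replicate 4, against 9.87 to 9.91 in the other TGFb1 arrays. All 3 are arrays of replicate 4, which also stood apart over all genes. With either array or both left out, CTSC still passed in TGFb1 against control.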

How the results depend on the processing

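Of the calls on single genes, those that held under all alternatives other than the stricter thresholds were 4 of 12 for TGFb1 against control, 15 of 18 for acriflavine against TGFb1, 10 of 17 for valproate against TGFb1, 13 of 18 for acriflavine against valproate, 12 of 15 for acriflavine against control and 7 of 14 for valproate against control. LAMP2 reversed: with the probe set of largest variance it was at 0.26 with acriflavine against TGFb1 (adjusted p = 0.519); another probe set is read there. For TGFb1 against control 7 genes passed with the 2 groups alone and 7 at an adjusted p under 0.01. For acriflavine against valproate 24 genes passed with the 2 groups alone and 25 without the replicates 4, against 18 in the main fit. At least 2-fold changes were limma calls of 0, 1, 1, 6, 1 and 2 genes in the 6 comparisons in the order above. Over all genes, 1.25% were higher and 1.32% lower by as much for TGFb1 against control, and 3.51% and 3.77% for acriflavine against control. For TGFb1 against control 6 higher and 12 lower genes had an unadjusted p under 0.05. For valproate against control 6 genes passed at an adjusted p under 0.01, 22 without the replicates 4 and TGFb1 replicate 2, and 9 to 15 with 1 array left out. The median with acriflavine against TGFb1 was 0.0706 without the replicates 4 and TGFb1 replicate 2, and with valproate against TGFb1 it was 0.241 with the mean of probe sets. The median with acriflavine against control was -0.0415 without probe sets ending in _x_at, and -0.0434 without the replicates 4 or without those and TGFb1 replicate 2. It was -0.0499 with the replicate block or a term for the replicates 4, and -0.193 to -0.0434 with 1 array left out. The causes were not tested. With the replicate block 15, 21, 22, 22, 18 and 19 genes passed in the same order. Beyond TGFb1 against control the criterion for pairs was not met. For the alternatives other than the 2-fold rule, shares of all genes are not given here. Other scalings moved the median of all genes by at most 0.0639. The number of arrays limits small differences.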

Other observations

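Beyond the lysosome's own proteins, 22 genes of autophagy and lysosome fusion were tested. Over all genes 24.5% rose and 19.1% fell with acriflavine relative to TGFb1, 15.1% and 16.2% with valproate, 8.39% and 9.97% with TGFb1 alone, and 28.3% were higher and 23.3% lower with acriflavine than with valproate. ULK1, the kinase that starts autophagosome formation, rose with TGFb1 alone (1.18) and fell with acriflavine relative to TGFb1 (-1.99), with group means of 8.68 for acriflavine, 10.5 for valproate, 10.7 for TGFb1 and 9.5 for control. Its TGFb1 arrays, from 9.79 to 11.06, overlapped the control arrays, from 9.17 to 9.80, and it was read from 1 probe set. With acriflavine 6 genes rose (27.3%), led by BECN1 (0.75), a subunit of a lipid kinase complex, and PLEKHM1 (0.61), a fusion adaptor, and 4 fell (18.2%), with WIPI1 (-0.82) after ULK1. With valproate 5 rose (22.7%) and 17 did not pass, led by PLEKHM1 (0.81) and GABARAPL1 (0.70), a ubiquitin-like protein of autophagosomes. With TGFb1 alone 2 rose, the other being ATG9A (0.39), and 7 fell (31.8%), with PLEKHM1 at -0.65 and ATG7 at -0.45 first. Between the drugs 4 were higher with acriflavine, BECN1 (0.84) and VPS18 (0.47) first, and 8 lower, ULK1 (-1.83) and WIPI1 (-1.38) first.

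Of 6 tested genes of the response to lysosome damage, LGALS8, a galectin that marks broken lysosomes, fell with TGFb1 (-1.28) and rose with acriflavine (1.31) and valproate (0.98). LGALS3, another such galectin, rose with acriflavine (0.65), and LGALS1 with valproate (0.25). In all 4 rose with acriflavine and 2 with valproate, and between the drugs LGALS3 (0.51) and FBXO27 (0.25) were higher and LGALS1 (-0.22) lower with acriflavine. Of 3 tested cystatins, inhibitors of the cysteine cathepsins, 0 passed in the limma fit in any of the 6 comparisons, and at an unadjusted p under 0.05 there was 1 for TGFb1 against control, 2 for valproate against TGFb1, and 1 each for acriflavine against valproate and against control. Of 8 markers of ductal carcinoma cells, 5 fell with TGFb1, led by CDH1 (-2.40) and EPCAM (-1.38), and 6 rose with acriflavine relative to TGFb1, led by the same 2 genes (2.85 and 1.97). With valproate KRT7 (1.37) and EPCAM (0.67) rose and MUC1 (-0.31) fell.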
